A study of Homo sapiens with 9 samples.

Results

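This account describes what 2 hairpin lines of HEK293 cells, a transformed human embryonic kidney line, had in common when set against wild-type HEK293 cells. One line carried a hairpin RNA against AMOT and the other a hairpin RNA against YAP1, and total RNA from each was measured on bead arrays. All 9 arrays of the study enter: 6 hairpin arrays, 3 from each line, and 3 control arrays. The 2 lines weighed equally, so that each pooled change is the mean of the 2 line means minus the control mean. The sources of the samples name hairpins while their titles say knockout, and the design text speaks of knockdown in 3 separate experiments per group. The labels name no control hairpin, so effects of a vector, of selection or of passage that the 2 lines share cannot be told apart from effects of lowering either target. The sources used here do not say how the hairpins were delivered or whether a line is 1 clone.

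Angiomotin, encoded by AMOT, is a scaffold of junctions and of the actin cytoskeleton. Among its partners is YAP, the protein made from YAP1, a transcriptional coactivator that joins TEAD factors in the nucleus and is kept out of it by the Hippo kinases. A short hairpin RNA is cut into a small interfering RNA by Dicer and loaded on an Argonaute protein, so any hairpin draws on the same cellular machinery, and long double-stranded RNA can set off an interferon response. The lists of genes used below therefore cover the Hippo pathway, RNA interference and interferon genes beside the general machinery of growth.

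Of the 47231 probes in the table, 22375 were tested, those with a detection p under 0.05 on at least 3 of the 9 arrays. Median raw intensity lay between 174.7 and 208.1. Detected probes numbered 19831 to 20397 on the controls and 20827 to 22187 on the hairpin arrays, so that all 6 hairpin arrays had more detected probes than any control, and the part of this in the results was not tested. Levels below are background-corrected, quantile-normalized log2 intensities, changes are differences of such levels, and p-values are limma's, adjusted by the Benjamini-Hochberg method over all tested probes. Levels of different probes cannot be set against each other. In bulk RNA, fewer cells making a transcript and less of it per cell cannot be told apart.

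The hairpins' targets check the labels. AMOT had log2 levels of 14.33, 14.32 and 14.21 on the control arrays, 9.94, 10.05 and 10.21 in the AMOT line and 13.66, 13.72 and 13.76 in the YAP line. It was far lower only in the line with its own hairpin, and slightly lower in the other, with all 6 hairpin arrays below the controls. YAP1 had log2 levels of 10.63, 10.72 and 10.64 on the control arrays, 10.48, 10.52 and 10.74 in the AMOT line and 8.79, 8.79 and 8.93 in the YAP line. It was low only in the YAP line, and 1 AMOT array lay above the controls. The pooled changes of -2.4 (SE 0.09, adjusted p = 3.44e-07) for AMOT and -0.95 (SE 0.09, adjusted p = 3.89e-05) for YAP1 thus average a targeted and an untargeted line. Neither held when the difference between the lines was counted as spread (adjusted p = 0.0862 and 0.153).

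Several of the leading genes have known start regions in RefSeq, and 4 are printed here because they belong to the genes with the largest shared rise and the largest shared fall: the hair keratin-associated genes KRTAP19-1 and KRTAP19-6, both on chromosome 21, the chaperone gene HSPB8 and the RNA-binding protein gene RBM14. Each is the 250 bases before the gene's start, 5′ to 3′ along the gene (RefSeq, GRCh38.p14), with capitals for GGAATG or its reverse complement CATTCC, the core letters bound by TEAD factors.
KRTAP19-1 (chr21:30480368-30480617, minus strand): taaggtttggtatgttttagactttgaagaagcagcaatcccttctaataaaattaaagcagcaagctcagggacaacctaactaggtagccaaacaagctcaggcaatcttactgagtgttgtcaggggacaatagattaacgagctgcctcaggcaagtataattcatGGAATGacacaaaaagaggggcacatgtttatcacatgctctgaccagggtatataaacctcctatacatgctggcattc
KRTAP19-6 (chr21:30541865-30542114, minus strand): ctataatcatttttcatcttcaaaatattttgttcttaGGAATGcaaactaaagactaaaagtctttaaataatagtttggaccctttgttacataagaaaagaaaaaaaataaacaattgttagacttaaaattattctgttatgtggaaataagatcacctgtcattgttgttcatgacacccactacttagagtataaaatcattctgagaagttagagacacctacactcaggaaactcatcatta
HSPB8 (chr12:119178681-119178930, plus strand): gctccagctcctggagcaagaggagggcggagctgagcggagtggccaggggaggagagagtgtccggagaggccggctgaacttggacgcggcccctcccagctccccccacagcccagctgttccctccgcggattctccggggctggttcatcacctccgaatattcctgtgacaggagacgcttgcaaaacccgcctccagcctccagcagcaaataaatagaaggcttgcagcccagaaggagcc
RBM14 (chr11:66616380-66616629, plus strand): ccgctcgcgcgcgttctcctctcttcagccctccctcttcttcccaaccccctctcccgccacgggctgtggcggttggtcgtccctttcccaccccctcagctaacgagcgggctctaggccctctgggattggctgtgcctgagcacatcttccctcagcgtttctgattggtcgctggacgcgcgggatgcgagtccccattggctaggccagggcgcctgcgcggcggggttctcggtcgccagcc
The letters stand 80 bases before the start in KRTAP19-1 and 212 before it in KRTAP19-6, and they are in neither of the other sequences. Set position by position without alignment, the KRTAP19 pair had the same base at 65 of 250 positions (26%). No other pair was compared, so the count does not measure likeness. Of the 36 genes named for the largest shared changes or for passing between undetected and detected, 32 had 42 start regions in the table. From 250 bases before to 50 after the start, 5 of these 42 (11.9%) held GGAATG on either strand, against 14% of all 35116 start regions. They were those of APOE, KRTAP19-1, KRTAP19-6, NMNAT2 and RBM14. In the 250 upstream bases alone, a window taken afterwards so that nothing after the start is printed, the counts were 4 of 42 (9.52%) against 11.9%. A pair of motifs added after the genes were seen, TTCNNGAA and TGATGNAA, each searched on both strands, were in 3 of 42 (7.14%, against 7.74%) and 0 of 42 (0%, against 3.62%) of the wider windows. None of the 3 motifs was more frequent in these genes than in all start regions, which says nothing about where a factor binds.

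The pooled comparison asks which transcripts differ between the hairpin lines and the controls. It called 8991 of 22375 probes (40.2%), 4467 higher (20.0%) and 4524 lower (20.2%). In 3258 rising probes (14.6%) and 3361 falling probes (15%) all 6 hairpin arrays lay on the same side of all 3 controls. These 6619 probes (29.6%) are the shared changes. Of them, 818 rose (3.66%) and 380 fell (1.70%) by at least 2-fold. Large rises thus outnumbered large falls by more than the calls did, and without background correction the 2-fold counts were 242 and 92. Over the 15520 probes with a detection p under 0.01 on all 9 arrays they were 425 and 261. Among the 16722 probes detected on all 9 arrays, shared falls outnumbered shared rises, 3058 against 2642. The part of probes undetected on the controls in the excess of large rises was not tested.

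Between controls and hairpin arrays lay 49.9% of the sum of squares of the tested probes, between the lines 21.4% and within the groups 28.7%. Set against the same controls, the AMOT line had 7846 calls (35.1%), 3931 higher (17.6%) and 3915 lower (17.5%). The YAP line had 8338 (37.3%), 4147 higher (18.5%) and 4191 lower (18.7%). The direct test of AMOT line against YAP line, which uses no control array, called 3904 probes (17.4%), 1926 higher (8.61%) and 1978 lower (8.84%) in the AMOT line. These counts were 1249 and 1254 without AMOT array 1, 1249 and 1221 without YAP array 1, 1312 and 1242 without YAP array 2, and 863 and 1527 under median scaling, which thus split them unevenly. Among the 6619 shared changes the lines differed in 1306 (19.7%), with the larger change in the AMOT line in 596 and in the YAP line in 710. Among the 2372 pooled calls whose arrays overlapped the controls, the lines differed in 982 (41.4%). The tests above measure the spread between arrays of a line. With each line's mean taken as 1 value, 2 lines against 1, limma called 0 probes in either direction, 3470 had an unadjusted p under 0.05, and the lowest adjusted p was 0.189.

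**Figure D1:**
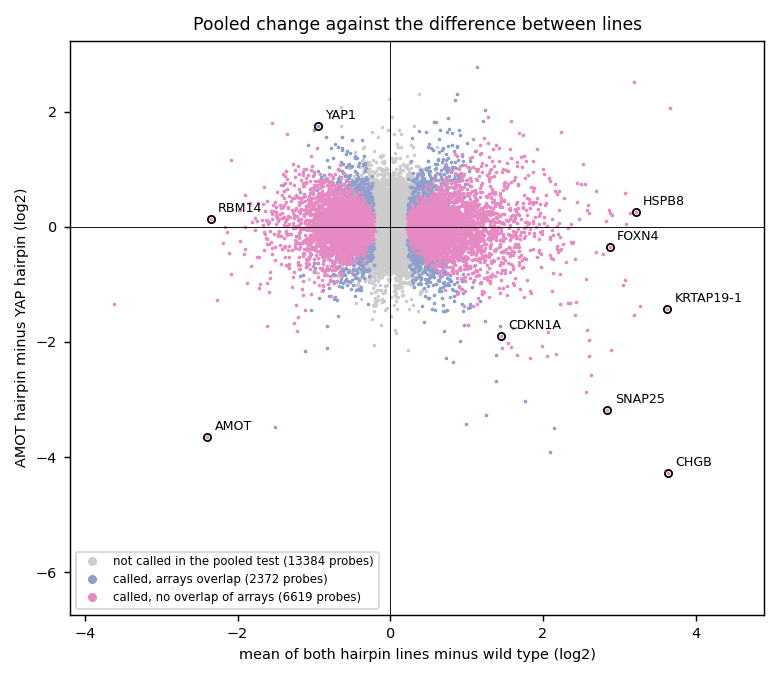
Pooled change of each tested probe (horizontal axis, log2, hairpin lines minus controls) against the difference between the lines (vertical axis, log2, AMOT line minus YAP line), with named genes marked. HSPB8 lies far to the right at 3.21 and near 0 on the vertical axis, while CHGB lies as far right but at -4.28 below it.

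Among rising genes detected on all 9 arrays, the first by the smaller of the 2 line changes was HSPB8, a small heat shock protein that works with BAG3 in clearing misfolded proteins. Its log2 levels were 7.08, 6.62 and 6.53 on the control arrays, 9.92, 10.16 and 10.17 in the AMOT line and 9.72, 9.97 and 9.79 in the YAP line. Every hairpin array was more than 2 units above every control, a pooled change of 3.21 (SE 0.13, adjusted p = 6e-07), or 9.27-fold. KRTAP19-1 and KRTAP19-6, whose upstream sequences are given above, encode keratin-associated proteins of the hair shaft. KRTAP19-1 had log2 levels of 8.34, 8.32 and 8.56 on the control arrays, 11.21, 11.46 and 11.30 in the AMOT line and 12.74, 12.74 and 12.79 in the YAP line. KRTAP19-6 had log2 levels of 7.9, 7.44 and 7.61 on the control arrays, 10.03, 10.32 and 9.88 in the AMOT line and 11.65, 11.58 and 11.61 in the YAP line. Both were high in the AMOT line and higher still in the YAP line, with pooled changes of 3.63 (SE 0.09, adjusted p = 7.77e-08) and 3.2 (SE 0.13, adjusted p = 5.16e-07), and the lines differed by -1.44 (adjusted p = 6.07e-05) and -1.54 (adjusted p = 0.000214). As members of a gene family they may share probe signal, since probe sequences were not used here.

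FOXN4, a forkhead transcription factor of retinal and spinal progenitor cells, had log2 levels of 6.55, 6.73 and 6.6 on the control arrays, 9.46, 9.14 and 9.39 in the AMOT line and 9.61, 9.78 and 9.65 in the YAP line. It rose by 2.88 (SE 0.10, adjusted p = 2.62e-07), and the lines did not differ past the threshold. INHBE, the beta E subunit of the inhibin and activin family, had log2 levels of 7.48, 7.59 and 7.4 on the control arrays, 10.04, 10.39 and 10.20 in the AMOT line and 10.02, 9.96 and 9.93 in the YAP line. All 6 hairpin arrays stood above 9.9 while no control passed 7.6, a change of 2.6 (SE 0.10, adjusted p = 3.66e-07). COL7A1, the collagen of the anchoring fibrils under epithelia, had log2 levels of 6.36, 7.29 and 6.35 on the control arrays, 9.49, 9.63 and 9.22 in the AMOT line and 9.3, 8.76 and 9.13 in the YAP line. One control was higher than the other two, and the change of 2.59 (SE 0.22, adjusted p = 2.55e-05) was larger than that spread.

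RALGPS1, an exchange factor for Ral GTPases, had log2 levels of 7.07, 7.31 and 7.13 on the control arrays, 9.79, 9.53 and 9.38 in the AMOT line and 9.48, 9.46 and 9.6 in the YAP line. It rose by 2.37 (SE 0.11, adjusted p = 8.4e-07). APOE, the lipid-carrying apolipoprotein E, had log2 levels of 6.39, 6.67 and 6.29 on the control arrays, 8.57, 8.83 and 8.72 in the AMOT line and 8.99, 8.97 and 8.96 in the YAP line, a change of 2.39 (SE 0.10, adjusted p = 6.69e-07). In both genes the hairpin lines were close to each other and about 2 units above the controls. SARM1, an enzyme that cleaves NAD in injured axons, had log2 levels of 6.81, 6.23 and 6.28 on the control arrays, 8.7, 8.72 and 8.34 in the AMOT line and 9.15, 9.21 and 9.05 in the YAP line, a change of 2.42 (SE 0.15, adjusted p = 3.99e-06). ZDHHC11, of the palmitoyltransferase family, rose by 2.21 (SE 0.16, adjusted p = 9.63e-06), with 2.24 in the AMOT line and 2.17 in the YAP line. VAV3 rose by 2.22 (SE 0.15, adjusted p = 7.46e-06), and its other probe by 1.27. CAMK1D, a calcium and calmodulin-dependent kinase, rose by 2.32 (SE 0.12, adjusted p = 1.86e-06) on 1 probe and by only 0.68 and 0.59 on its other probes, both with arrays that overlapped the controls.

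The falling genes were led by RBM14, an RNA-binding coactivator found in paraspeckles. Its log2 levels were 13.08, 13.05 and 13.00 on the control arrays, 10.75, 10.75 and 10.77 in the AMOT line and 10.60, 10.66 and 10.61 in the YAP line. The hairpin arrays kept within 0.2 units of each other and lay more than 2 units below the controls, a change of -2.35 (SE 0.07, adjusted p = 1.91e-07) or 5.1-fold. HNRNPA1, a splicing regulator, had log2 levels of 8.53, 8.39 and 8.67 on the control arrays, 6.2, 6.43 and 6.43 in the AMOT line and 6.63, 6.41 and 6.04 in the YAP line on the probe that ranked. That probe changed by -2.17 (SE 0.13, adjusted p = 4.54e-06), whereas the gene's brighter probe had a change of -0.24 that was not called (adjusted p = 0.206). TRIOBP, which bundles actin filaments, likewise depended on the probe. Its first probe changed by -2.14 (SE 0.12, adjusted p = 2.13e-06), another by -0.88 (adjusted p = 0.00142) and the last by 0.15, which was not called (adjusted p = 0.156).

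Other falls were borne by each probe of the gene. DBNL, an actin-binding adaptor, had log2 levels of 10.02, 10.05 and 10.03 on the control arrays, 8.43, 8.11 and 8.23 in the AMOT line and 8.24, 8.38 and 7.91 in the YAP line. Its change was -1.82 (SE 0.12, adjusted p = 5.62e-06), and its brighter probe gave -1.61. METTL26, a methyltransferase-like protein, changed by -1.91 (SE 0.09, adjusted p = 9.67e-07) and by -1.53 on its other probe. ZNF326, a zinc finger protein that links RNA polymerase II to messenger ribonucleoproteins, changed by -1.97 (SE 0.19, adjusted p = 5.01e-05) and by -1.46. CCNYL1, a relative of cyclin Y, changed by -1.75 (SE 0.15, adjusted p = 2.18e-05) and by -1.27. ALDH3A2, the fatty aldehyde dehydrogenase, changed by -2.08 (SE 0.15, adjusted p = 8.51e-06) on the probe that ranked and by -0.86 and -0.88 on the others, so the size of its fall differs between probes.

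CDC6, which loads the replicative helicase at origins, had log2 levels of 8.33, 8.25 and 8.58 on the control arrays, 6.59, 6.62 and 6.97 in the AMOT line and 6.93, 6.69 and 6.47 in the YAP line. It changed by -1.67 (SE 0.13, adjusted p = 1.79e-05), with -1.66 in the AMOT line and -1.69 in the YAP line. RPL36A, a ribosomal protein, had log2 levels of 9.54, 9.43 and 9.58 on the control arrays, 7.79, 7.95 and 7.95 in the AMOT line and 7.95, 7.81 and 7.6 in the YAP line. Its change of -1.68 (SE 0.10, adjusted p = 3.07e-06) is uncertain in origin, since ribosomal protein genes and HNRNPA1 have processed copies elsewhere in the genome. SLC38A10, an amino acid transporter relative, changed by -1.9 (SE 0.08, adjusted p = 6.69e-07), with -1.62 in the AMOT line and -2.18 in the YAP line. CHLSN, a gene named for the hormone cholesin, changed by -1.65 (SE 0.12, adjusted p = 1.24e-05), with -1.69 in the AMOT line and -1.61 in the YAP line.

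**Figure D2:**
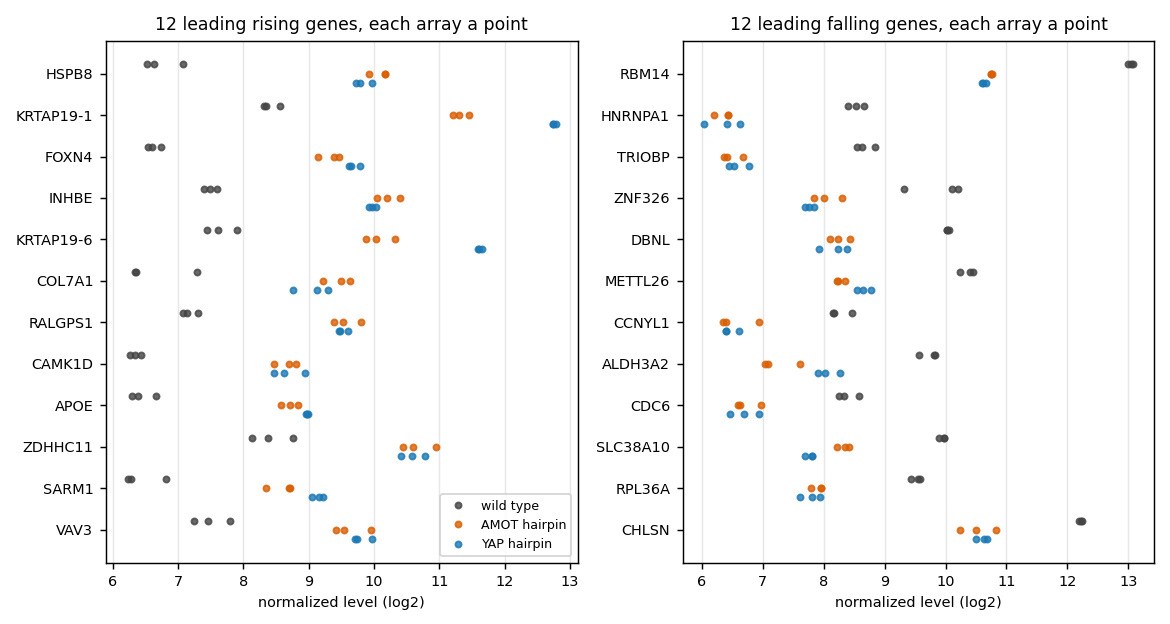
Log2 level (normalized intensity) of named rising and falling genes on each array, one point per array, for controls, AMOT line and YAP line. For HSPB8 the controls lie between 6.53 and 7.08 and the hairpin arrays between 9.72 and 10.17, and for RBM14 the order is turned, with controls at 13.00 to 13.08 and hairpin arrays at 10.60 to 10.77.

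Of the 22375 tested probes, 242 were undetected on the 3 controls, detected on all 6 hairpin arrays and called higher. Those with a gene name stood for 179 genes. The opposite held for 34 probes, and those with a gene name stood for 13 genes. The log2 limit of detection was 5.923 to 5.985 on the controls and lower, 5.766 to 5.879, on the hairpin arrays, so the 2 counts are not on equal terms. The part of this in the counts was not tested. For such genes only a bound can be given: the mean of the bright side divided by the limit of detection. PLA2G4C, a cytosolic phospholipase A2, had log2 levels of 5.36, 5.85 and 5.66 on the control arrays, 9.01, 8.89 and 8.74 in the AMOT line and 8.75, 8.79 and 8.39 in the YAP line. It was at least 7.02-fold higher in the hairpin lines (adjusted p = 6.69e-07). NMNAT2, which makes NAD in axons, had log2 levels of 5.09, 5.26 and 5.9 on the control arrays, 8.01, 8.14 and 7.83 in the AMOT line and 9.31, 9.35 and 9.45 in the YAP line. It was at least 6.64-fold higher, and higher in the YAP line than in the AMOT line by 1.38 log2 units. NMNAT2 and SARM1, which make and cleave the same cofactor in axons, were both among the named rises.

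ISG15, an interferon-induced protein related to ubiquitin, had log2 levels of 5.4, 5.28 and 5.89 on the control arrays, 8.95, 8.94 and 8.75 in the AMOT line and 8.39, 8.27 and 8.23 in the YAP line. It was at least 6.23-fold higher, and above the controls on every hairpin array. PAQR6, a membrane progestin receptor, was at least 5.7-fold higher, and its other probe had a fitted change of 2.82. KRCC1, a lysine-rich coiled-coil protein, was at least 5.05-fold higher on 1 probe, and a brighter probe rose by 1.16. CACNG6, a gamma subunit of calcium channels, was at least 4.42-fold higher.

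In the other direction, BCL2L11, which encodes the cell death protein BIM, had log2 levels of 7.15, 6.68 and 7.41 on the control arrays, 5.18, 4.97 and 5.35 in the AMOT line and 5.29, 5.13 and 5.11 in the YAP line. It was undetected on each hairpin array and at least 2.36-fold lower, and a brighter probe fell by 1.24. ATP5MK, a membrane subunit of ATP synthase, was at least 2.17-fold lower. MYCBP, a protein that binds MYC, was at least 1.9-fold lower. TOR1AIP2, an activator of torsin ATPases, was at least 1.7-fold lower, with changes of -0.72 and -0.58 on its other probes. For the tyrosine kinase ABL1 and the dynein assembly factor DNAAF5 the probes went apart. The dim ABL1 probe was at least 2.05-fold lower while its brighter probe rose by 0.33 (adjusted p = 0.014), and the dim DNAAF5 probe was at least 1.84-fold lower while its brighter probe had a change of 0.01 (adjusted p = 0.954).

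The most even changes of at least 2-fold are shown by 6 genes. THBS3, a matrix thrombospondin, had log2 levels of 8.49, 8.33 and 8.11 on the control arrays, 9.48, 9.52 and 9.28 in the AMOT line and 9.49, 9.35 and 9.44 in the YAP line. Its line changes were 1.12 and 1.12. The pseudogene RRN3P1 had 1.0 and 1.0, and LPP, a focal adhesion protein, 1.01 and 1.01. SESN3, a sestrin that restrains growth signalling under stress, had -1.01 and -1.01, PSMD11, a lid subunit of the proteasome, -1.09 and -1.09, and the ranked HNRNPA1 probe -2.17 and -2.17.

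Gene lists were read with 1 probe per gene, the brightest, beside all 11493 genes tested, of which 5359 (46.6%) were called, 2899 rose (25.2%) and 2460 fell (21.4%) with a median pooled change of 0.02. The lists with the largest shares of falling members were ribosome biogenesis, the proteasome and mitochondrial ribosomal proteins. Of 31 proteasome genes, 23 fell (74.2%) and 0 rose, with a median of -0.37, and in all 23 the arrays did not overlap. Of all 11493 genes tested, 2460 fell, and 1874 (16.3% of those tested) did so without overlap. PSMD11 had log2 levels of 8.9, 8.65 and 8.67 on the control arrays, 7.62, 7.74 and 7.61 in the AMOT line and 7.62, 7.55 and 7.78 in the YAP line. PSMB3, a core subunit, changed by -0.91, with -1.14 in the AMOT line and -0.68 in the YAP line. The mean level of the 31 genes lay between 12.27 and 12.37 on the controls and between 11.91 and 11.99 on the hairpin arrays.

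Of 32 ribosome biogenesis genes, 24 fell (75%) and 1 rose, with a median of -0.42 and line medians of -0.31 (AMOT) and -0.52 (YAP). BOP1, which processes ribosomal RNA of the large subunit, had log2 levels of 12.70, 12.60 and 12.65 on the control arrays, 11.32, 11.31 and 11.30 in the AMOT line and 11.55, 11.57 and 11.65 in the YAP line. UTP20, of the small subunit processome, changed by -1.12 (SE 0.15, adjusted p = 0.000314). The member that rose was TAF1D, a subunit of the RNA polymerase I factor SL1, with 0.62 (SE 0.09, adjusted p = 0.000445). The mean of the list was 11.29 to 11.33 on the controls, 10.93 to 10.99 in the AMOT line and 10.78 to 10.82 in the YAP line, so neither line overlapped the controls or the other line.

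Of 73 mitochondrial ribosomal proteins, 41 fell (56.2%) and 3 rose (5 without background correction), with a median of -0.32. MRPL12 had log2 levels of 10.46, 10.03 and 10.36 on the control arrays, 9.24, 9.06 and 9.17 in the AMOT line and 8.82, 9.1 and 8.97 in the YAP line. MRPL23 changed by -1.04, and MRPS6 was one of those that rose, by 0.52, a call lost under median scaling (adjusted p = 0.0532). Of 55 genes of the respiratory chain and ATP synthase, 26 fell (47.3%) and 0 rose, with a median of -0.25. UQCRB, of complex III, had log2 levels of 10.46, 10.43 and 10.30 on the control arrays, 8.93, 8.98 and 8.82 in the AMOT line and 9.15, 9.18 and 8.98 in the YAP line. NDUFB6, of complex I, changed by -0.85 (SE 0.12, adjusted p = 0.000575). Their hairpin arrays all lay below the controls.

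Cytosolic ribosomal proteins did not share this pattern of counts. Of 48, 8 rose (16.7%), 3 fell (6.25%) and 37 were not called, with a median of 0.05. With the mean of a gene's probes 8 fell, and in the series matrix 13 rose. RPL28 and RPL37 rose by 1.18 and 1.08. RPS24 and RPL29 fell, with changes of -1.51 and -0.95. These values too may hold signal of processed copies.

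Of 20 glycolysis genes, 10 fell (50%) and 4 rose, with a median of -0.33. PFKL, the liver type of phosphofructokinase, had log2 levels of 9.45, 8.96 and 9.3 on the control arrays, 7.79, 7.45 and 7.68 in the AMOT line and 8.16, 8.08 and 8.28 in the YAP line. HK2, a hexokinase, changed by -0.78 (SE 0.08, adjusted p = 8.72e-05). Of the risers, ENO2 is the enolase of neurons and rose by 1.73 (SE 0.08, adjusted p = 1.16e-06), and SLC2A3 is the glucose transporter of neurons, with 0.28 in the AMOT line and 1.66 in the YAP line. The SLC2A3 call was lost when the difference between lines counted as spread (adjusted p = 0.079). Of 15 genes listed as hypoxia targets, 6 rose (40%) and 0 fell. The largest rise, 0.69, was that of ARNT, a subunit of the hypoxia-inducible factor and not itself a target. P4HA2, a collagen prolyl hydroxylase, followed with 0.62. The list's median of 0.26 was -0.02 over the members with a detection p under 0.01 on all 9 arrays.

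Among folding factors the lists were mixed. Of 17 chaperones of the endoplasmic reticulum, 8 fell (47.1%) and 4 rose, with a median of -0.22. HSPA5, the lumenal chaperone BiP, had log2 levels of 10.33, 10.50 and 10.51 on the control arrays, 11.55, 11.58 and 11.60 in the AMOT line and 12.05, 11.83 and 11.91 in the YAP line, all 6 hairpin arrays above the controls. CALR rose by 0.48, while PDIA4 and DNAJC3 fell, with changes of -0.73 and -0.69. Of 16 heat shock proteins, 6 fell and 2 rose, the risers being HSPB8 and HSPB1 (0.65), both small heat shock proteins. HSPE1, the mitochondrial co-chaperonin, changed by -0.94 and HSPA4 by -0.58. Of 14 chaperonin and prefoldin genes, 6 fell, PFDN4 most with -0.68, and 1 rose.

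Of 21 genes of the integrated stress response, 7 rose (33.3%) and 8 fell (38.1%), with a median of -0.08. NUPR1 and STC2 rose by 1.11 and 1.04. SLC7A11, the cystine transporter, was undetected on the hairpin arrays and at least 1.44-fold lower, and CHAC1, which breaks down glutathione, had a fitted change of -1.0. Of 17 aminoacyl-tRNA synthetases, 5 fell and 0 rose, with a median of -0.13. The median was -0.244 under median scaling, and 8 fell with the mean of a gene's probes. Of 17 metallothioneins and NRF2 targets, 7 fell and 3 rose, GCLM, of glutathione synthesis, with -1.28, MT1X with -1.14 and MT1F with 1.08. Of 17 cholesterol synthesis genes, 7 rose and 4 fell, TM7SF2 with 0.61 and MVD with -0.74.

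Of 48 splicing factors, 20 fell (41.7%) and 2 rose (5 without background correction), with a median of -0.23. RBM14 was the largest fall. HNRNPL changed by -0.84 (SE 0.08, adjusted p = 5.49e-05), and SRSF5 rose by 0.94 (SE 0.11, adjusted p = 0.000152). Of 38 small nuclear and nucleolar RNAs, 7 fell and 4 rose, with line medians of 0.09 (AMOT) and -0.35 (YAP). SCARNA14, a guide RNA of Cajal bodies, had log2 levels of 7.8, 8.48 and 8.07 on the control arrays, 6.5, 6.81 and 6.52 in the AMOT line and 5.73, 5.43 and 5.21 in the YAP line, where it was undetected. RN7SK, the RNA that holds P-TEFb inactive, rose by 0.94.

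**Figure D3:**
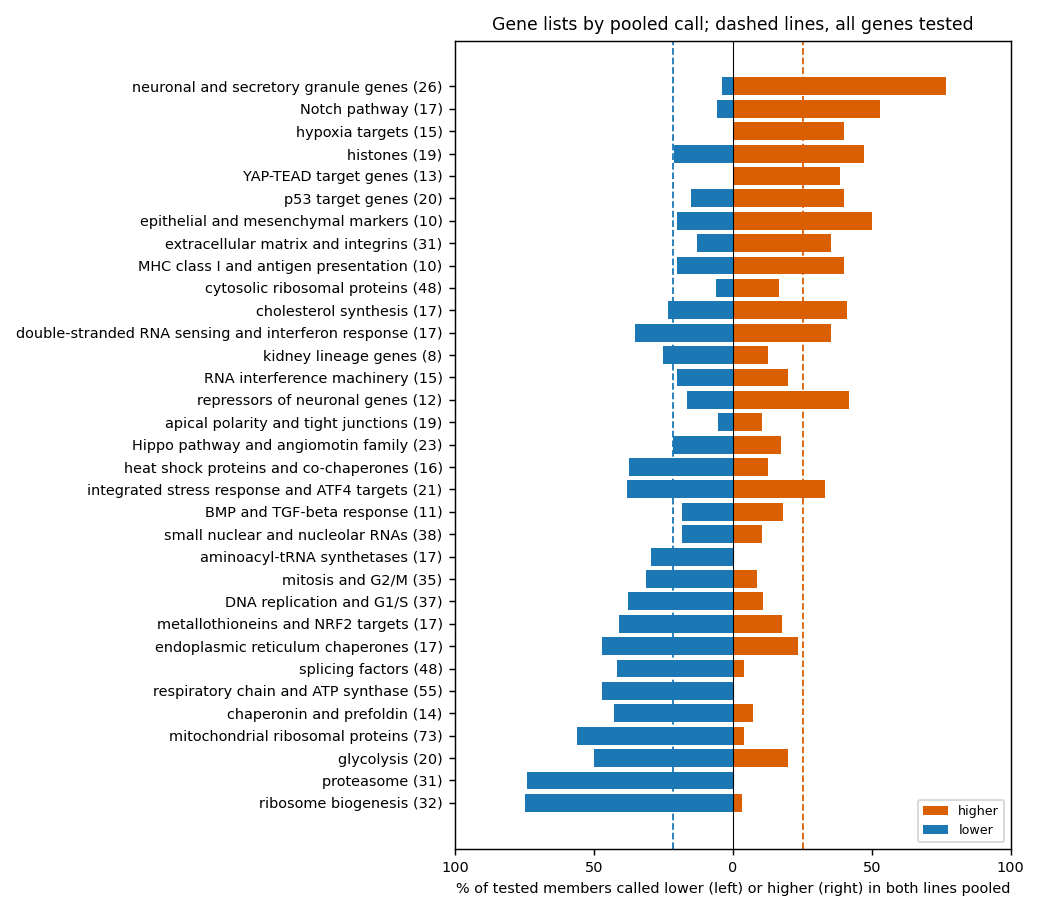
Percent of tested members of each gene list with at least 8 tested that fell (left) and rose (right) in the pooled comparison, with the shares over all 11493 genes (21.4% and 25.2%) as dashed lines. Proteasome and ribosome biogenesis stand out with 74.2% and 75% of members lower, and neuronal genes with 76.9% higher.

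Of 37 genes of DNA replication and the G1/S phase, 14 fell (37.8%) and 4 rose, with a median of -0.15. CDC6 led, and RRM2, a subunit of ribonucleotide reductase, had log2 levels of 9.01, 10.13 and 9.99 on the control arrays, 7.81, 8.1 and 8.0 in the AMOT line and 8.25, 8.26 and 8.52 in the YAP line. CDT1, the partner of CDC6 in licensing, rose by 0.82 (SE 0.08, adjusted p = 6.85e-05), and E2F2 by 0.61. Of 35 genes of mitosis and G2/M, 11 fell (31.4%) and 3 rose (5 with the mean of a gene's probes), with line medians of -0.02 (AMOT) and -0.27 (YAP). KIF20A, a kinesin of cytokinesis, changed by -0.90 and CDC20 by -0.53. MKI67, the proliferation antigen Ki-67, had a pooled change of 0.75, with arrays that overlapped the controls. It was called in the AMOT line (1.07, adjusted p = 0.00358) and not in the YAP line (0.42, adjusted p = 0.144). Of 19 histones, 9 rose and 4 fell. H2BC5 rose by 1.66 (SE 0.09, adjusted p = 2.54e-06), with 2.22 in the AMOT line and 1.09 in the YAP line, and H4C3 changed by -0.90. H4C8 was undetected on the controls and at least 2.33-fold higher in the AMOT line, while in the YAP line it was detected on 2 of 3 arrays with no fold to be given. The list's median of 0.24 was 0.04 with members undetected on the controls at their bounds.

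Neuronal and secretory granule genes had the largest share of rises of the lists with at least 4 tested genes. Of 26, 20 rose (76.9%) and 1 fell, with a median of 1.06, or 0.94 with 6 genes at their bounds. The lines differed in 19 of the 26, against 22.3% of all genes tested, with line medians of 0.79 (AMOT) and 1.41 (YAP). CHGB, a granin of secretory granules, had log2 levels of 5.12, 5.22 and 5.4 on the control arrays, 6.63 to 6.86 in the AMOT line and a mean of 11.02 in the YAP line. SNAP25, of the synaptic fusion machinery, had log2 levels of 4.92, 5.0 and 4.81 on the control arrays, 6.14, 6.18 and 6.17 in the AMOT line and 9.32, 9.43 and 9.29 in the YAP line. Both were undetected on the controls and far higher in the YAP line, at least 7.63-fold and 3.5-fold higher in the pooled mean. The list's mean level was 7.62 to 7.65 on the controls, 8.32 to 8.43 in the AMOT line and 9.29 to 9.37 in the YAP line. Of 12 repressors of neuronal genes, 5 rose and 2 fell, with a median of 0.00. RCOR2 and RCOR3, corepressors of REST, rose by 0.90 and 0.84.

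Of 17 Notch pathway genes, 9 rose (52.9%) and 1 fell, with a median of 0.45 that was 0.287 without background correction. The line medians were 0.028 (AMOT) and 0.415 (YAP), and the lines differed in 10 of the 17, against 22.3% of all genes tested. HES5, a Notch target that maintains neural progenitors, had log2 levels of 7.46, 7.49 and 7.56 on the control arrays, 9.89, 10.11 and 10.00 in the AMOT line and 9.08, 9.23 and 9.16 in the YAP line. NOTCH3, a receptor, had log2 levels of 8.93, 8.83 and 8.75 on the control arrays, 9.65, 9.71 and 9.7 in the AMOT line and 10.32, 10.29 and 10.17 in the YAP line. In the direct test HES5 was higher in the AMOT line, by 0.84 (adjusted p = 0.000538). NOTCH3 was higher in the YAP line, with -0.57 (adjusted p = 0.00325). HEY2 went the other way from HES5 in that test, with -0.38 (adjusted p = 0.0163). Of 11 genes of the BMP and TGF-beta response, 2 rose and 2 fell (1 and 4 with the mean of a gene's probes). ID3, which blocks helix-loop-helix factors, changed by -1.41 (SE 0.09, adjusted p = 5.87e-06). Its relative ID1 was detected on 1 of the 6 hairpin arrays, and its fitted change was -1.66 (SE 0.15, adjusted p = 2.94e-05). SMAD9 rose by 0.94. LTBP2 was at least 1.62-fold higher.

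Of 31 genes of the matrix and its integrins, 11 rose (35.5%) and 4 fell, with a median of 0.17. LAMB2 and LAMA5, chains of laminins, rose by 1.34 and 0.92. COL18A1, the collagen that yields endostatin, had log2 levels of 8.46, 8.44 and 8.36 on the control arrays, 6.88, 6.63 and 6.62 in the AMOT line and 6.7, 6.78 and 7.02 in the YAP line. Its line changes were -1.71 and -1.59, with every hairpin array below the controls. Of 10 epithelial and mesenchymal markers, 5 rose and 2 fell. CD44, undetected on the controls, was at least 2.36-fold higher in the AMOT line and at least 1.02-fold higher in the YAP line, where 2 of 3 arrays detected it. KRT8 rose by 0.98. The falls were CDH1 with -0.97 and SNAI2, a repressor of CDH1, with -0.31 (SE 0.09, adjusted p = 0.0168), and the SNAI2 call was lost without control array 1 or 2 (adjusted p = 0.0622 and 0.0502) and under median scaling (adjusted p = 0.0766). Of 19 genes of apical polarity and tight junctions, 2 rose (4 with the mean of a gene's probes) and 1 fell, PARD3 being at least 1.18-fold higher and LIN7C changing by -0.64. Of 3 clustered protocadherins tested, 2 rose, PCDHB2 by 1.58 from a control mean under the limit of detection, and PCDHB9 by 0.66.

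Of 23 Hippo pathway and angiomotin family genes, 4 rose and 5 fell, with a median of -0.03, near the shares of all genes. Both targets were among the falls. The median was 0.097 over members with a detection p under 0.01 on all 9 arrays. The kinase TAOK3 rose by 0.71 (SE 0.11, adjusted p = 0.000797). TEAD3, a DNA-binding partner of YAP, had a pooled change of 0.75 (SE 0.16, adjusted p = 0.00431), but its hairpin arrays overlapped the controls. It was called in the YAP line (1.02, adjusted p = 0.00194) and not in the AMOT line (0.47, adjusted p = 0.0713). Of 13 YAP-TEAD target genes, 5 rose (38.5%) and 0 fell, with a median of 0.22, or 0.143 with members undetected on one side at their bounds. The median ran from 0.123 in the series matrix to 0.328 under median scaling, and 1 member fell with an offset of 50. ANKRD1 changed by 1.59, with 2.5 in the AMOT line and 0.67 in the YAP line, from a control mean under the limit of detection. GADD45A, a growth arrest gene, had log2 levels of 10.29, 10.28 and 10.20 on the control arrays, 10.86, 10.73 and 10.82 in the AMOT line and 11.46, 11.79 and 11.34 in the YAP line. CCN1 rose by 0.40, while CCN2 had 0.22 and was not called.

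Genes that handle hairpins and foreign RNA had calls in both directions. Of 15 genes of RNA interference, 3 rose (20%) and 3 fell (20%), near the shares of all genes tested (25.2% and 21.4%). Their median was 0.03, and -0.103 with the mean of a gene's probes. TNRC6B, an Argonaute partner, rose by 0.89 (SE 0.09, adjusted p = 7.89e-05). AGO2, the slicing Argonaute, had a pooled change of 0.54 (SE 0.13, adjusted p = 0.00883), but its hairpin arrays overlapped the controls. It was called in the YAP line (0.71, adjusted p = 0.00496) and not in the AMOT line (0.37, adjusted p = 0.086). HSP90AA1 and RAN, which help load Argonaute and export precursor RNAs, fell, with changes of -0.44 and -0.39. Of 17 genes of double-stranded RNA sensing and the interferon response, 6 rose (35.3%) and 6 fell (35.3%), with a median of 0.03 that was -0.136 without a filter. BST2, or tetherin, was undetected on the controls and at least 2.48-fold higher in the pooled mean, beside ISG15. By line BST2 was at least 1.68-fold higher in the AMOT line and 3.64-fold in the YAP line. IFITM3, an interferon-induced membrane protein, had log2 levels of 6.7, 6.53 and 6.97 on the control arrays, 6.29, 5.8 and 5.7 in the AMOT line and 6.33, 6.07 and 5.9 in the YAP line. MAVS, the adaptor of RNA sensors, changed by -1.23 (SE 0.16, adjusted p = 0.000306). Of 10 genes of MHC class I presentation, 4 rose and 2 fell, TAPBP with 0.63.

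Of 20 p53 target genes, 8 rose (40%) and 3 fell (15%), with line medians of -0.02 (AMOT) and 0.50 (YAP). The lines differed in 13 of the 20, against 22.3% of all genes tested. CDKN1A, the cell cycle inhibitor p21, had log2 levels of 10.77, 10.32 and 10.66 on the control arrays, 10.85, 11.25 and 11.17 in the AMOT line and 13.01, 12.97 and 12.97 in the YAP line. Its pooled call was lost when the difference between lines counted as spread (adjusted p = 0.056). GDF15 was undetected on the controls and at least 3.4-fold higher in the pooled mean. By line it was at least 2.15-fold higher in the AMOT line and 5.38-fold in the YAP line. TIGAR, a regulator of glycolysis, changed by -0.56. MDM2 had a pooled change of -0.73 (SE 0.22, adjusted p = 0.0252), but its hairpin arrays overlapped the controls. It was called in the AMOT line (-1.145, adjusted p = 0.00702) and not in the YAP line (-0.314, adjusted p = 0.372).

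**Figure D4:**
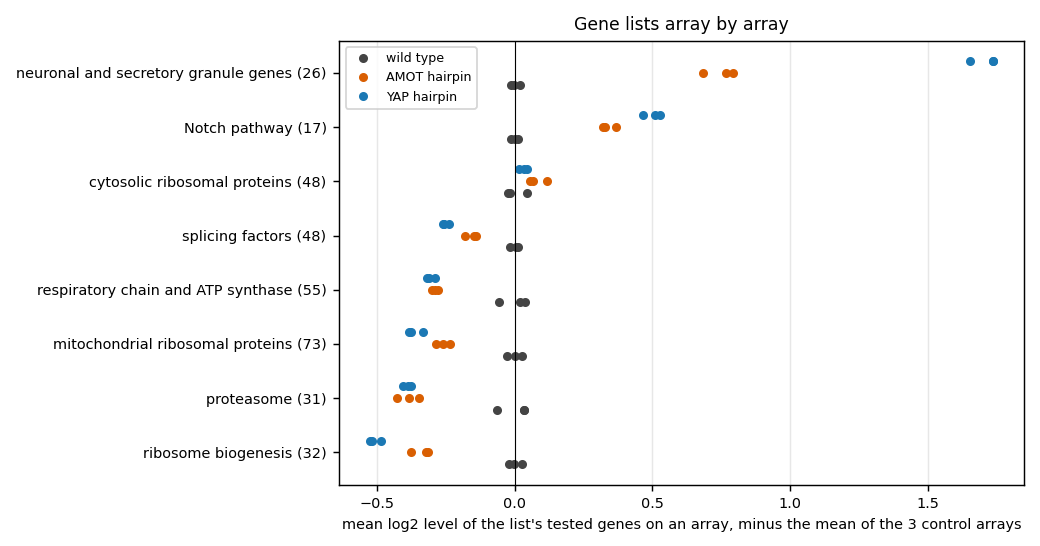
Mean log2 level of the tested members of 8 gene lists on each array, as the difference from the control mean, with 1 point per array. The lists were chosen after the list results were seen. Proteasome and ribosome biogenesis lie below the controls in both lines, cytosolic ribosomal proteins near them, and neuronal genes above them in both lines and highest in the YAP line.

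Markers of other cell types were sparse. None of 7 endothelial markers was tested. Of 6 blood and immune markers, 2 were tested: CD68 had 0.43 (SE 0.15, adjusted p = 0.0438) and CD14 0.30 (SE 0.10, adjusted p = 0.0325). Both calls were lost under several alternatives, among them when single arrays were left out. With line means apart, adjusted p ran up to 0.121 and 0.279. The leukocyte gene PTPRC was not tested. Of 6 fibroblast markers, 3 were tested and 0 were called: COL1A1 (-0.31), COL3A1 (0.01) and LUM (0.36). Of 19 kidney lineage genes, 8 were tested, 1 rose and 2 fell, EYA1 with 0.42, WT1 with -0.78 and HOXD11 with -0.39. The EYA1 and HOXD11 calls were lost when the difference between lines counted as spread (adjusted p = 0.0522 and 0.0549). The tubule factors PAX2, PAX8 and LHX1 were not tested.

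**Figure D5:**
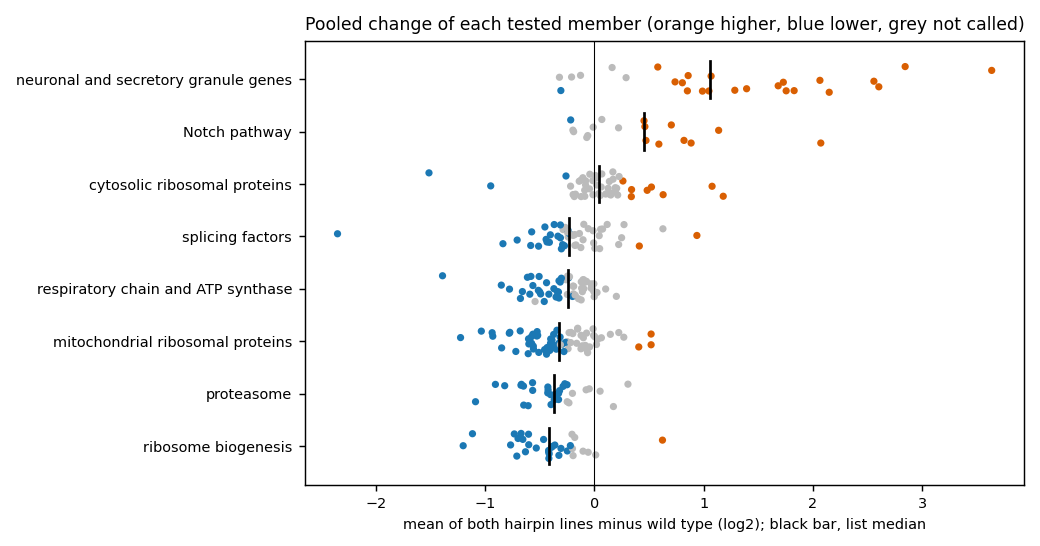
Pooled log2 change of each tested member of the same 8 gene lists, 1 point per gene (orange called higher, blue called lower, grey not called), with a black bar at the list's median. Nearly all called proteasome and ribosome biogenesis members lie below 0, and nearly all called neuronal members lie above it.

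Changes were spread over the chromosomes. Over the autosomes and chromosome X, the median pooled change ranged from -0.08 on chromosome 13 to 0.17 on chromosome 10, where 34.6% of 465 genes rose and 13.8% fell. Among 11018 running stretches of 21 neighbouring measured genes, the 1st and 99th percentiles of the median were -0.34 and 0.34. The stretches picked as most extreme in both lines ran from NME4 to RPUSD1 on chromosome 16, with a median of -0.48 and line medians of -0.44 and -0.43, and from THAP7 to SLC2A11 on chromosome 22, with a median of 0.47 and line medians of 0.53 and 0.54. METTL26, named above, is on chromosome 16.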

How the data were processed

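Total RNA of 9 HEK293 samples was hybridised to Illumina bead arrays with biotin labelling. The deposited table gives, per the file headers, for each array a linear intensity per probe, not normalized, and a detection p-value. The authors' series matrix holds normalized intensity values of 20062 probes and served as an alternative. The sources used here give no slide or scan, so batch could not be tested. The gene names are GEO's platform annotation: 15261 tested probes had 1 symbol and 7114 were unnamed.

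In R 4.3.3 with limma 3.58.1, neqc removed background inferred from the detection p-values, added an offset of 16 and quantile-normalized, which sets changes relative to all transcripts. A model with 1 mean per group was fitted to all 9 arrays (6 residual and 3.53 prior degrees of freedom), and tests were 2-sided with a threshold of 0.05. A call of the pooled contrast with all 6 hairpin arrays on one side of the 3 controls is a shared change. The number of arrays limits the precision.

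The members, the 37 gene lists, the motifs and the tests were chosen with earlier results of these data known. Named genes were both targets; the 12 rising and 12 falling genes, detected on all arrays, with the largest smaller-line shared change; the 6 brightest in each direction that passed between undetected and detected on all arrays; up to 4 called members of each list with the largest change; and the 3 most even changes of at least 2-fold in each direction. CCN1, CCN2 and the fibroblast markers were named after their values were seen. Start regions were searched for 3 motifs, of which GGAATG from 250 bases before to 50 after the start was planned and the 250-base window and both other motifs were added later. The main fit did not pair arrays by replicate number. Correlations of deviations between groups ran from -0.131 to 0.099 for same-numbered arrays and from -0.123 to 0.12 for the others. They show no replicate effect of note, but cannot tell whether same-numbered arrays were handled together. Alternatives were other normalizations, backgrounds, offsets, filters, blocks, units of replication and leaving out each array.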

Additional observations from a re-analysis of the deposited data

Results flagged for a closer look

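In 55 of the 155 named genes the 2 hairpin lines themselves differed (adjusted p under 0.05). The test is limma's, of AMOT line minus YAP line across all probes, and uses no control array. Over all 11493 genes tested the lines differed in 2565 (22.3%). For the 55 named genes the pooled change is a mean of unlike lines. In parentheses stands the AMOT level minus the YAP level in log2 units.

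The fitted level was lower in the AMOT line in 29 genes. By at least 1 unit these were CHGB (-4.28), AMOT (-3.65), SNAP25 (-3.18), CDKN1A (-1.9), KRTAP19-6 (-1.54), KRTAP19-1 (-1.44), NMNAT2 (-1.38), SLC2A3 (-1.37), GDF15 (-1.32), BST2 (-1.11) and PARD6A (-1.04). By less they were ALDH3A2 (-0.83), GADD45A (-0.73), ENO2 (-0.72), KRT8 (-0.60), MT1H (-0.59), NOTCH3 (-0.57), SARM1 (-0.55), PFKL (-0.53), RCOR2 (-0.50), PSMB3 (-0.46), MT1X (-0.45), MVD (-0.42), TIGAR (-0.42), METTL26 (-0.39), HEY2 (-0.38), HDAC2 (-0.37), HSPA5 (-0.36) and BOP1 (-0.28). AMOT itself is the target of 1 hairpin, and the secretory and neuronal genes CHGB and SNAP25 stand beside it.

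The fitted level was higher in the AMOT line in 26 genes. By at least 1 unit these were ANKRD1 (1.83), YAP1 (1.74), H4C8 (1.29), CD44 (1.22), PCDHB2 (1.18), SCARNA14 (1.15) and H2BC5 (1.13). By less they were ID3 (0.92), HES5 (0.84), ID1 (0.68), RN7SK (0.66), CHAC1 (0.65), CD14 (0.63), SNORD80 (0.61), WT1 (0.60), ISG15 (0.59), SLC38A10 (0.56), UCHL1 (0.55), CDC20 (0.50), SRSF5 (0.49), EYA1 (0.45), RPS24 (0.43), RCOR3 (0.41), HOXD11 (0.38), MYCBP (0.37) and AARS1 (0.34). YAP1 is the target of the other hairpin. For some of these genes the values are fitted and not measured on both sides. MYCBP was undetected on all 6 hairpin arrays, so its levels have no order between the lines. SCARNA14 was undetected in the YAP line, and ID1 was detected on 1 of 3 AMOT arrays and 0 of 3 YAP arrays. CHAC1 was detected on 1 of 3 YAP arrays, H4C8 and CD44 on 2 of 3 YAP arrays, and MT1H on 2 of 3 AMOT arrays. Causes of the differences were not tested.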

How the results depend on the processing

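Under each of 19 alternatives, line means apart, 128 of 155 named genes kept their direction and their call wherever they were tested, and none changed direction. The 12 counts of calls stayed within 1.5 times of the reported ones under cyclic loess, no filter and both blocks. Median scaling gave 2478 falls in the YAP line and 863 probes higher and 1527 lower in the AMOT than the YAP line (cause not tested). Of 36 list medians, 14 moved by more than the spread between arrays under median scaling, 7 without background correction, 7 of 35 with the stricter detection filter, 6 in the series matrix, 6 with the mean of a gene's probes, 4 under cyclic loess, 3 without a filter and 2 with an offset of 50. Counts of shared changes of at least 2-fold were 242 up and 92 down without background correction, and 519 and 226 with an offset of 50. They were 240 and 92 in the series matrix, and 425 and 261 with a detection p under 0.01 on all 9 arrays. The uncorrected background and the larger offset add to both sides of a ratio. With line means, 2 against 1, all 6 counts of pooled and shared calls were 0. Leaving out single arrays, pooled calls ran from 3646 to 4395 up and 3623 to 4351 down. Calls between lines ran from 1249 to 1973 and 1221 to 2009. They were 1249 and 1254 without AMOT array 1, 1249 and 1221 without YAP array 1, and 1242 lower without YAP array 2. With the replicate number as a block, pooled calls were 4214 up and 4287 down, and 4373 and 4389 as a random block. With line differences counted as spread they were 3345 and 3358, and 16 named calls were lost. Calls of HEY2, CD14, PTBP1, CD68, HDAC2, MDM2, SNAI2, MRPS25, MARS1 and PFDN6 were lost without some single array. Over the alternatives, line means apart, their adjusted p ran up to 0.242, 0.279, 0.131, 0.121, 0.142, 0.109, 0.0766, 0.0506, 0.0522 and 0.0716.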

Other observations

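Genes grouped by the letters of their symbols, 97 stems with at least 12 tested genes, were ranked by median pooled change. The groups below are some of those near the ends of that ranking, picked after their values were seen, with no test. Others near the ends include ARHGEF, where 8 of 14 rose and 2 fell, and MRPL, where 29 of 50 fell and 2 rose. Over all 11493 genes tested, 25.2% rose and 21.4% fell. Of 12 SNHG genes, hosts of small nucleolar RNAs, 7 rose and 0 fell, with a median of 0.48, SNHG7 by 0.83 and SNHG6 by 0.79. Of 13 SCARNA genes, small RNAs of Cajal bodies, 0 rose and 6 fell, with a median of -0.48. Of 14 DENND genes, exchange factors for Rab GTPases, 10 rose and 1 fell, DENND2A having a fitted change of 1.73. Of 15 GOLGA genes, 7 rose and 0 fell, and several are near-identical copies whose signal may be shared. Of 32 POLR genes, subunits of the RNA polymerases and relatives, 16 fell and 3 rose, POLR2L changing by -0.89. Of 14 ALG genes, which build the sugar chain for N-glycosylation, 7 fell and 2 rose.

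Among 3032 genes with more than 1 tested probe, 91 had probes called in opposite directions, and in 45 of these the opposite calls were both shared changes. DNAH14, a dynein heavy chain, had 1 probe at -0.87 and others with fitted changes of 1.80 and 2.55, whose control means lay below the limit of detection. CYB5RL had probes at -1.45 and 0.83, and AGAP3 at -1.50 and 0.61. Whether such probes read different transcripts was not tested.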
